A study of Mus musculus with 3 samples.

Results

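The 10 genes described here, of 55421 in the files, belong to the circadian clock, the feedback loop by which cells keep daily time. They were chosen by name: Arntl, Npas2, Per1, Per2, Per3, Nr1d1, Nr1d2, Dbp, Bhlhe40 and Bhlhe41. A list of 16 other clock genes is given beside them. They were read in droplet single-cell RNA libraries (10x 3′) made from liver of 3 wild-type mice, each group being 1 mouse. All 3 had received an iron-deficient diet with 2 to 6 ppm iron for 1 week. The IDD mouse stayed on it as the control. The IDD+HTF mouse got 10 mg of iron-loaded transferrin, the plasma iron carrier, into the tail vein. The IDD+HID mouse was moved to a diet of 2% carbonyl iron for 18 h. The hour of day at collection, and the time from the injection to collection, are not given. The hour of day and the treatment can therefore not be told apart for any gene below. Livers were perfused with collagenase and then treated with pronase, and 5% hepatocyte suspension was mixed with 95% suspension of the other cells.

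As background, BMAL1 (encoded by Arntl) pairs with CLOCK or its relative NPAS2 and switches on genes that carry E-boxes. Among these are the Per and Cry genes, whose proteins shut the pair off again, and Nr1d1 and Nr1d2, which encode the nuclear receptors REV-ERB alpha and beta. REV-ERBs repress Arntl and Npas2 through ROR response elements (ROREs), so in mouse liver the transcripts of Arntl and those of Nr1d1 peak at opposite times of day. Dbp is an E-box target whose protein acts on D-boxes, as in Per3. Bhlhe40 and Bhlhe41 encode DEC1 and DEC2, E-box repressors that also respond to hypoxia, hormones and other signals. The liver clock is set by feeding time and by glucocorticoids.

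The promoter windows of the members, from 250 bases before to 50 bases after the transcript start, were read from RefSeq (build GRCm38.p6) to show which clock elements they carry. A window was found for 8 of the 10 members, and 4 of them held a match on either strand to the E-box CACGTG, the D-box TTANGTAA or the RORE. Matches are in capitals, and each line reads 5′ to 3′ on the gene's strand.
Per1: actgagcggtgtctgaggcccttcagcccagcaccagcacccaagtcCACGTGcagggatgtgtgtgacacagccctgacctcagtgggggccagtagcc
Bhlhe41: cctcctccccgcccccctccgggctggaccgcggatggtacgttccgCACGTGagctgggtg
Per3: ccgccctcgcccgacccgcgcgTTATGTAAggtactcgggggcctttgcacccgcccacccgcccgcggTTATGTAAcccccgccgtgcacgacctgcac
Arntl: AAAGTAGGTCA
The Per1 stretch is chr11:69098736-69098835 (+ strand), with its E-box 166 bases before the start, inside the annotated span of Per1 and outside its exons. The Bhlhe41 stretch is chr6:145865559-145865620 (− strand), just upstream of the gene as GENCODE annotates it. Its E-box lies 153 bases before the RefSeq start of the window, which falls inside the GENCODE gene. The Per3 stretch is chr4:151044793-151044892 (− strand), upstream of the gene, with D-boxes 205 and 158 bases before the start. The Arntl match is a RORE at chr7:113207537-113207547 (+ strand), in an exon, 26 bases after the start of the other of its windows. Of 32851 windows in the table, 7.15% held this E-box, 2.32% the D-box and 0.384% the RORE. The windows of Nr1d1, Nr1d2, Dbp and Npas2 held no match, which says only that these letters are not in the 300 bases read. Per2 and Bhlhe40 had no window in the table.

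Cells were grouped by marker genes into classes, whose names end in "-like". For each class and library the UMIs (unique molecular identifiers, single captured transcripts) were summed and expressed as CPM, counts per 1000000 UMIs of that class. The libraries IDD, IDD+HTF and IDD+HID, in which order values are given throughout, held 1311, 3203 and 3538 cells, with medians of 3639, 4449 and 8596 UMIs. Liver cell markers summed to between 47154 and 61158 CPM in hepatocyte-like cells, and the sinusoidal endothelial, stellate and Kupffer markers to at least 17025, 20957 and 28035 CPM in theirs. The clusters were named from these same markers, so the sums describe the classes and do not test their names. Each pair of libraries shared 1 cell barcode. With 1 mouse per group no test between mice was possible. Intervals in brackets are exact 95% intervals and cover counting error only, not the spread between mice. A difference of at least 1.5-fold was taken as the rule of size, for genes with 50 or more UMIs over both libraries together, which are called measured. The 6 classes with at least 50 cells in every library were sinusoidal endothelial-like, stellate-like, Kupffer-like, hepatocyte-like, T-like and B-like. Vascular endothelial-like and plasmacytoid dendritic-like cells reached that number in IDD+HTF and IDD+HID and enter that comparison.

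In sinusoidal endothelial-like and stellate-like cells Arntl was lower, and Nr1d1 and Nr1d2 were higher, in IDD+HID than in IDD, by 1.5-fold or more each. Within the endothelial-like cluster 13, which held 31 of the 377 endothelial-like cells of IDD, none of these genes was separated from IDD by counting error. In IDD+HTF the same 3 genes lay between the other libraries in both classes. Summed Kupffer-like cells had more Nr1d1 and Per1 in both treated mice than in IDD, but the libraries filled the Kupffer-like clusters unequally and the difference did not appear in each cluster. Arntl there was between 23.4 and 25.6 CPM in all 3. In B-like cells Nr1d2 had its highest value in IDD, on too few UMIs for the rule of size. Over all 6 classes, IDD+HTF against IDD gave 25 measured pairs of clock gene and class out of 60. Of these 8 were higher (32%, against 14.5% of all measured pairs of gene and class) and 4 lower (16%, against 9.32%). IDD+HID against IDD gave 30 measured pairs, 11 higher (36.7%, against 21.8%) and 8 lower (26.7%, against 12.5%). IDD+HID against IDD+HTF, over 8 classes, gave 42 measured pairs of 80, with 4 higher (9.52%, against 13.1%) and 10 lower (23.8%, against 8.46%). In that comparison 7 of the 10 lower pairs were Bhlhe41. The pooled shares of genes higher in IDD+HID include hepatocyte-like cells, where 63.2% of genes were higher over IDD+HTF and 65.0% over IDD. Those cells raise the pooled shares, so the 9.52% is not read as below the background. Median log2 ratios of the measured clock pairs were −0.13, 0.07 and −0.15 in the order above, against 0.05, 0.12 and 0.07 for all pairs. A gene can count as measured through the library in which it is high, and classes of 1 library share a mouse, so these counts are a description. The comparisons with IDD share that library.

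**Figure D1:**
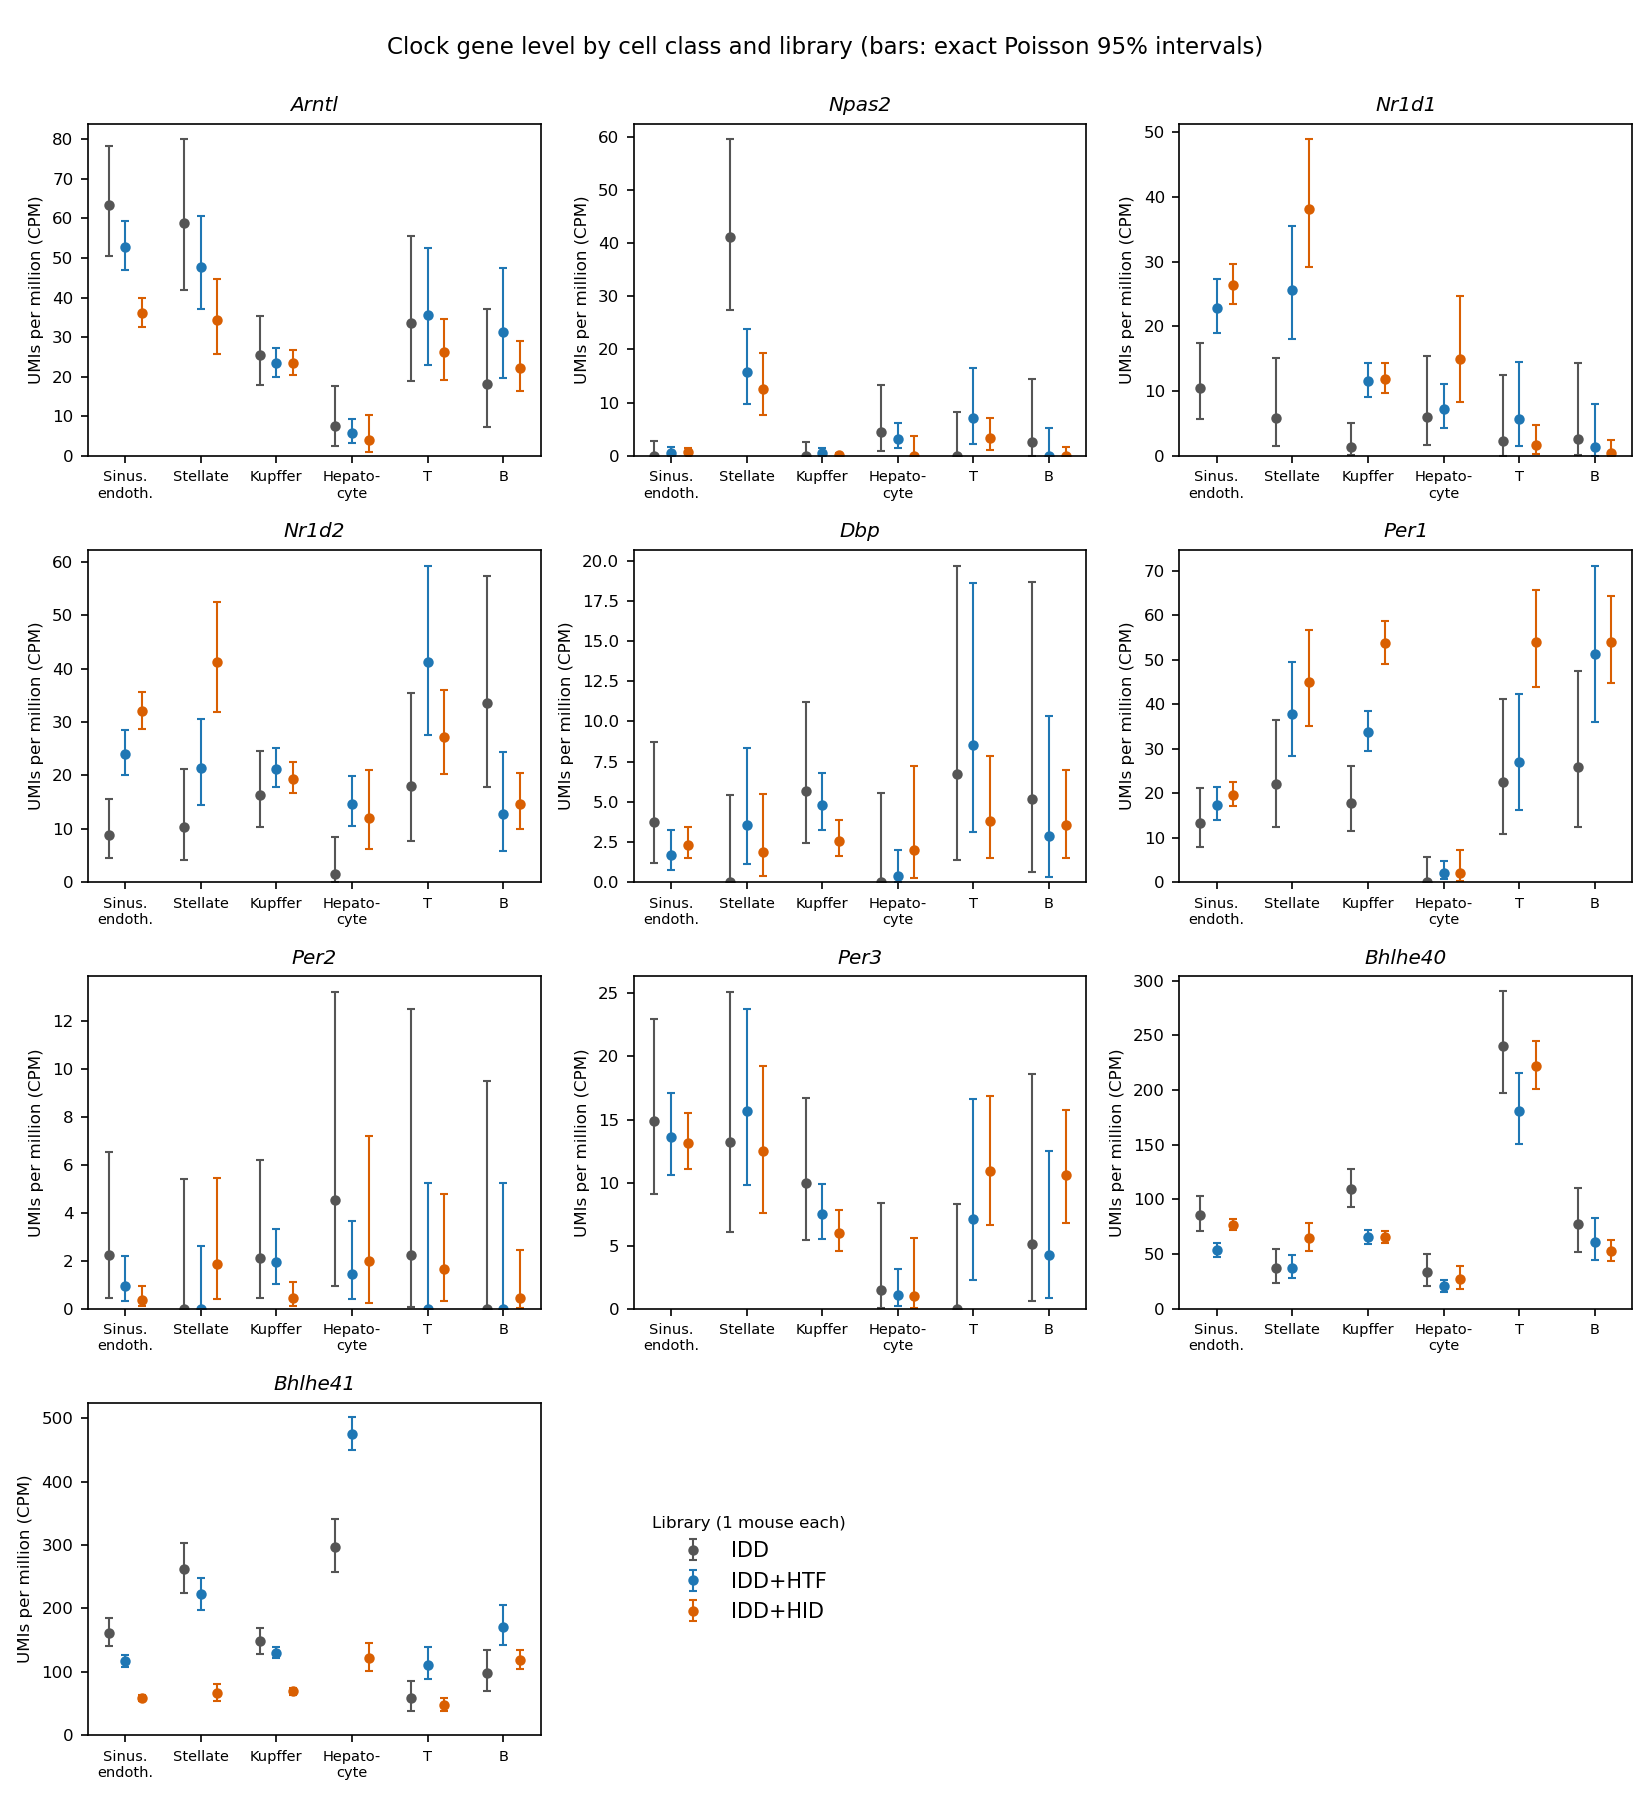
Level of each of the 10 clock genes (CPM, vertical axes) in 6 cell classes, with 1 point per library (IDD, IDD+HTF, IDD+HID) and bars for the exact 95% Poisson interval of the count. In sinusoidal endothelial-like and stellate-like cells Arntl is lowest and Nr1d1 and Nr1d2 are highest in IDD+HID, and Bhlhe41 is lowest in IDD+HID in 5 of the 6 classes.

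Arntl (chr7:113207465-113314126, + strand, GRCm38) encodes the transcriptional activator BMAL1. In sinusoidal endothelial-like cells it stood at 63.3 CPM in IDD (85 UMIs), 52.9 in IDD+HTF (280 UMIs) and 36.0 in IDD+HID (386 UMIs). The IDD+HID level was 0.569 times that of IDD (0.449 to 0.728) and 0.681 times that of IDD+HTF (0.582 to 0.797). IDD+HTF and IDD were not separated by counting error (0.835, 0.653 to 1.08). In stellate-like cells Arntl had the same order, 58.8, 47.8 and 34.3 CPM (40, 67 and 55 UMIs), and IDD+HID was 0.584 times IDD (0.382 to 0.901). Kupffer-like cells held 25.6, 23.4 and 23.4 CPM, a ratio of 0.915 for IDD+HID over IDD (0.641 to 1.34). T-like cells had 33.7, 35.6 and 26.2 CPM and B-like cells 18.1, 31.4 and 22.1 CPM, with no measured ratio past 1.5-fold. Hepatocyte-like cells held few Arntl UMIs, 5, 16 and 4, which gave 7.54, 5.74 and 4.00 CPM. Arntl was thus measured at least 1.5-fold lower in 2 of 5 classes in IDD+HID over IDD, in 0 of 3 in IDD+HTF over IDD and in 0 of 6 between the treated mice.

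Npas2 (chr1:39193731-39363236, + strand) encodes the partner that can replace CLOCK. Among the 6 classes it was found mainly in stellate-like cells, at 41.2 CPM in IDD (28 UMIs), 15.7 in IDD+HTF (22 UMIs) and 12.5 in IDD+HID (20 UMIs). IDD+HTF was 0.382 times IDD (0.208 to 0.692), and IDD+HID was 0.303 times IDD (0.162 to 0.558), the latter with 48 UMIs in the pair. Its level in sinusoidal endothelial-like cells was 0, 0.567 and 0.746 CPM. Cholangiocyte-like cells, too few for a comparison, held 4, 2 and 6 Npas2 UMIs. The stellate ratio for IDD+HTF moved to 0.606 when each cell was thinned to 1000 UMIs, that is, weighted alike whatever its depth. Without the stellate-like cells that carried endothelial markers, neither ratio over IDD was separated from 1, as given below.

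Nr1d1 (chr11:98767932-98775333, − strand) encodes REV-ERB alpha, the repressor of Arntl. In sinusoidal endothelial-like cells Nr1d1 stood at 10.4 CPM in IDD (14 UMIs), 22.9 in IDD+HTF (121 UMIs) and 26.4 in IDD+HID (283 UMIs). These were 2.19-fold (1.26 to 4.13) and 2.53-fold (1.48 to 4.69) over IDD, while the treated mice differed by 1.16-fold (0.930 to 1.44). In stellate-like cells Nr1d1 was 5.88, 25.7 and 38.1 CPM (4, 36 and 61 UMIs), which put IDD+HID 6.48-fold over IDD (2.40 to 24.5). The IDD+HTF ratio there, 4.37-fold (1.57 to 16.9), rested on 40 UMIs and fell short of the 50 required. Kupffer-like cells held 1.42, 11.5 and 11.9 CPM of Nr1d1. The IDD value was 2 UMIs, so the ratios of 8.12 (2.17 to 68.3) and 8.35 (2.26 to 69.8) have wide intervals, and they ranged from 3.72 to 15.1 and from 3.61 to 15.5 under the other settings that moved them. Within cluster 3, which held 141 of the 194 Kupffer-like cells of IDD, Nr1d1 was 2.83, 12 and 2.47 CPM (2, 18 and 3 UMIs), so IDD+HID was not above IDD. In cluster 5 the Nr1d1 counts were 0, 53 and 51 UMIs, and the 0 allows up to 4.89 CPM against 11.3 and 12.2. In cluster 21 they were 0, 6 and 56 UMIs, and the 0 allows up to 34.6 CPM. Hepatocyte-like cells had 6.03, 7.17 and 15 CPM on 4, 20 and 15 UMIs. In T-like cells Nr1d1 was at most 5.69 CPM and in B-like cells at most 2.58 CPM, no more than 4 UMIs in any library, so no difference was detectable there. Nr1d1 was measured in 2 and 3 classes in the comparisons with IDD and was higher in each of them, though not within Kupffer-like cluster 3 in IDD+HID.

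Nr1d2 (chr14:18204054-18239127, − strand) encodes REV-ERB beta. In sinusoidal endothelial-like cells Nr1d2 stood at 8.94 CPM in IDD (12 UMIs), 24 in IDD+HTF (127 UMIs) and 32.1 in IDD+HID (344 UMIs), the same order as Nr1d1. The ratios over IDD were 2.68 (1.48 to 5.33) and 3.59 (2.03 to 7.02), and IDD+HID was 1.34-fold over IDD+HTF (1.09 to 1.65). Stellate-like cells held 10.3, 21.4 and 41.2 CPM (7, 30 and 66 UMIs), 4.00-fold higher in IDD+HID than in IDD (1.84 to 10.3) and 1.92-fold over IDD+HTF (1.23 to 3.07). Kupffer-like cells showed little difference, 16.3, 21.3 and 19.4 CPM, with ratios over IDD of 1.30 (0.834 to 2.12) and 1.19 (0.767 to 1.92). In hepatocyte-like cells Nr1d2 was 1.51 CPM in IDD on 1 UMI, 14.7 in IDD+HTF (41 UMIs) and 12 in IDD+HID (12 UMIs), a ratio for IDD+HTF of 9.75 (1.65 to 394). T-like cells had 18.0, 41.3 and 27.3 CPM (8, 29 and 50 UMIs). The T-like ratio for IDD+HID over IDD, 1.52 (0.714 to 3.71), fell below 1.5 in 5 other settings, and that over IDD+HTF, 0.661 (0.410 to 1.08), in 3. B-like cells ran the other way, 33.5 CPM in IDD (13 UMIs) against 12.8 (9 UMIs) and 14.6 (33 UMIs), 0.435 times IDD in IDD+HID (0.223 to 0.90), under 50 UMIs in the pair.

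**Figure D2:**
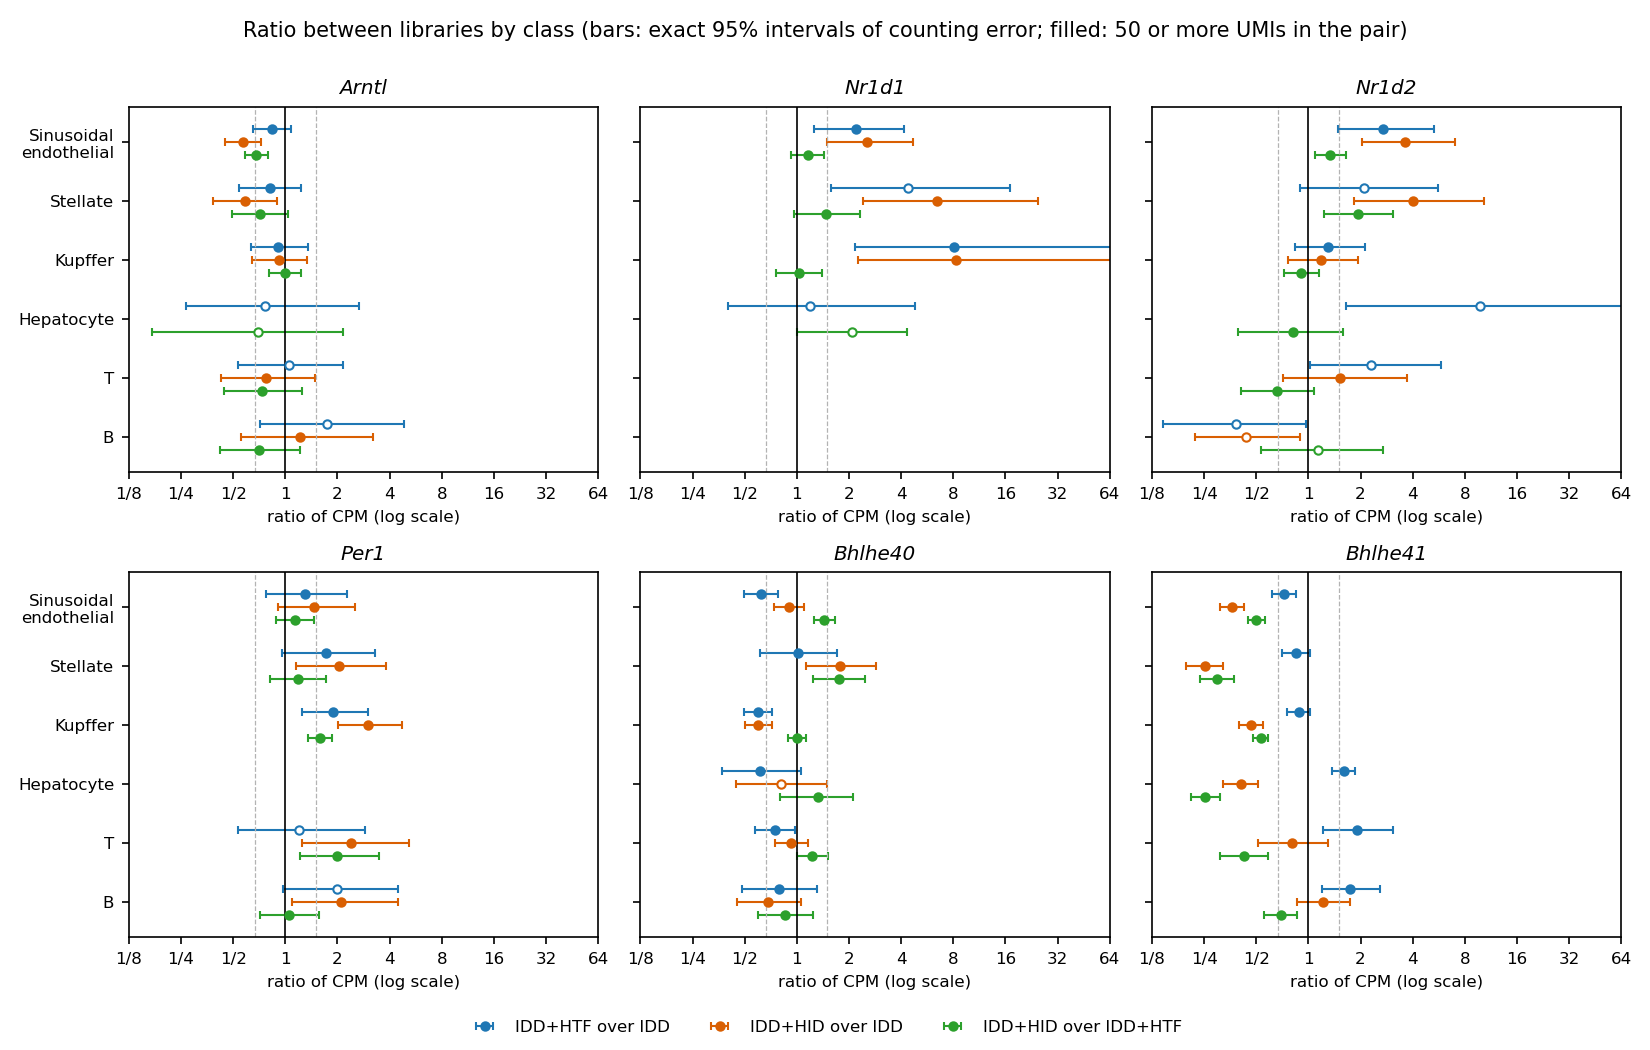
Ratio of CPM between libraries (horizontal log axis) for Arntl, Nr1d1, Nr1d2, Per1, Bhlhe40 and Bhlhe41 by cell class and comparison, with exact 95% intervals. Filled points have at least 50 UMIs in the pair, pairs under 20 UMIs or with a library at 0 are not drawn, dashed lines mark 1.5-fold, and bars that reach the right edge continue past it. Nr1d1 lies to the right of 1 over IDD in the sinusoidal endothelial-like, stellate-like and Kupffer-like classes, while Bhlhe41 lies to the left of 1 in IDD+HID over IDD+HTF.

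Thinned to 1000 UMIs per cell, the share of sinusoidal endothelial-like cells with an Nr1d2 UMI was 0.618% (0.094% to 2.04%) for IDD. It was 2.24% (1.33% to 3.52%) for IDD+HTF and 3.14% (2.19% to 4.34%) for IDD+HID. Unthinned the Nr1d2 shares were 2.39%, 12.9% and 24.2%, at median depths of 3072, 5968 and 9776 UMIs per cell. For Arntl the thinned shares ran down, 6.95%, 5.01% and 3.50%, while the unthinned ones ran up, 19.6%, 27.1% and 27.7%. As a class near background, B-like cells held Nr1d1 in 1.10%, 0.556% and 0.217% of cells, 1 UMI in each library, with 4041, 3600.5 and 4567 UMIs in the median cell.

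Of the 10 clock genes, Arntl, Nr1d1, Dbp, Bhlhe40 and Bhlhe41 share some exon bases with a gene on the opposite strand, and whether the counting used strand is not given. Nr1d1 shares 263 of 3077 exon bases with the thyroid hormone receptor gene Thra, so their reads could not be told apart there if strand was not used. Thra stood at 117, 124 and 115 CPM in sinusoidal endothelial-like cells and at 150, 138 and 154 CPM in stellate-like cells. In Kupffer-like cells Thra was 13.5, 22.5 and 32.9 CPM, and its part in the Nr1d1 difference there was not tested. Dbp shares 539 of 2993 exon bases with Sphk2, and Bhlhe41 1280 of 6720 with Gm43909.

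The Per genes encode the repressors that close the loop. Per1 (chr11:69095217-69109960, + strand), which is also induced acutely by glucocorticoids and by CREB, was highest among the 6 classes in Kupffer-like, T-like and B-like cells of IDD+HID. Kupffer-like cells held 17.8 CPM in IDD (25 UMIs), 33.7 in IDD+HTF (225 UMIs) and 53.7 in IDD+HID (498 UMIs). The ratios over IDD were 1.90 (1.25 to 3.0) and 3.02 (2.02 to 4.72), and the former was 1.47 without the tenth of cells with the most UMIs. IDD+HID was also 1.59-fold over IDD+HTF (1.36 to 1.87), or 1.26-fold without the Kupffer-like cluster 21, led by the chemokine gene Cxcl2. T-like cells had 22.4, 27.0 and 54.0 CPM of Per1, and IDD+HID was 2.41-fold over IDD (1.25 to 5.17). Their 2 clusters differed, with 38.3, 29.3 and 41.1 CPM in cluster 11 (5, 9 and 33 UMIs). In cluster 16 Per1 was 15.9, 25.3 and 64.1 CPM (5, 10 and 66 UMIs). B-like cells had 25.8, 51.4 and 53.9 CPM, 2.09-fold for IDD+HID (1.10 to 4.47). Stellate-like cells had 22, 37.8 and 44.9 CPM, 1.72-fold in IDD+HTF (0.953 to 3.28) and 2.04-fold in IDD+HID (1.16 to 3.83). Sinusoidal endothelial-like cells held 13.4, 17.4 and 19.7 CPM, and the IDD+HID ratio of 1.47 (0.907 to 2.53) included 1. Per1 was measured higher over IDD in 2 of 3 classes for IDD+HTF and in 4 of 5 for IDD+HID. Vascular endothelial-like cells had less in IDD+HID than in IDD+HTF, 32.7 against 55.3 CPM (0.592, 0.366 to 0.969). The few neutrophil-like cells had the highest values, 306, 135 and 209 CPM on 11, 6 and 22 UMIs.

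Per3 (chr4:151003652-151044665, − strand), the gene with a D-box pair in its promoter window, was nearly level in sinusoidal endothelial-like cells, at 14.9, 13.6 and 13.2 CPM. Its IDD+HID ratio there was 0.883 (0.551 to 1.49), beside the higher Nr1d1 and Nr1d2 of the same cells. Kupffer-like cells held 9.94, 7.49 and 6.04 CPM of Per3, a ratio of 0.607 for IDD+HID over IDD (0.334 to 1.18), which passed the rule of size but was 0.713 with a limit of 10% mitochondrial UMIs and 0.714 at a finer clustering. It was 0.380 with cells thinned to 1000 UMIs. Stellate-like cells held 13.2, 15.7 and 12.5 CPM. Per2 (chr1:91415982-91459324, − strand) was too scarce to compare, with no pair of libraries at 50 UMIs in any class. In hepatocyte-like cells Per2 had 3, 4 and 2 UMIs and in sinusoidal endothelial-like cells 3, 5 and 4.

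Dbp (chr7:45705088-45710203, + strand), an output gene with a very large daily swing in whole liver, was scarce in every class of all 3 libraries. Hepatocyte-like cells, the main liver cells, held 0, 1 and 2 Dbp UMIs, and a count of 0 in IDD allows up to 4.53 CPM. Kupffer-like cells held 5.68, 4.79 and 2.59 CPM on 8, 32 and 24 UMIs. That was the only measured pair for Dbp, 0.540-fold in IDD+HID over IDD+HTF (0.304 to 0.946). Sinusoidal endothelial-like cells had 3.72, 1.70 and 2.33 CPM on 5, 9 and 25 UMIs. The ratio for Dbp, 0.626 in IDD+HID over IDD (0.235 to 2.09), was not separated from 1.

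Bhlhe40 (chr6:108660629-108666925, + strand) encodes DEC1, and it was the most abundant member in T-like cells, at 240, 181 and 222 CPM. Kupffer-like cells held 109 CPM in IDD (154 UMIs) against 65.2 in IDD+HTF and 65.3 in IDD+HID, ratios of 0.596 (0.495 to 0.721) and 0.597 (0.500 to 0.718). Within the Kupffer-like cluster 3 the ratios were 0.325 (0.209 to 0.501) and 0.138 (0.069 to 0.255), and within cluster 5 they were 0.498 and 0.450. Within cluster 21 Bhlhe40 in IDD+HTF was not separated from IDD (0.937, 0.525 to 1.80), and IDD+HID stood at 0.529 (0.311 to 0.978). Sinusoidal endothelial-like cells had 85.6, 53.3 and 76.8 CPM, lowest in IDD+HTF (0.622 over IDD, 0.499 to 0.779). Clusters differed here too, with IDD+HID over IDD at 0.946 in cluster 1 (0.705 to 1.29) but 0.380 in cluster 13 (0.282 to 0.525), where Bhlhe40 was 233, 77.5 and 88.8 CPM. Stellate-like cells went the other way from Kupffer-like cells in IDD+HID, 36.7, 37.1 and 64.9 CPM, 1.77-fold over IDD (1.13 to 2.85). Hepatocyte-like cells had 33.2, 20.4 and 27.0 CPM. The hepatocyte ratio of 0.616 for IDD+HTF (0.371 to 1.06) lay between 0.680 and 0.696 in 3 other settings and was then not past the rule. Over IDD, Bhlhe40 was lower in 3 of 6 classes in IDD+HTF, and in IDD+HID lower in 1 and higher in 1 of 5.

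Bhlhe41 (chr6:145858243-145865558, − strand) encodes DEC2. It was lower in IDD+HID than in IDD+HTF by at least 1.5-fold in 7 of 8 classes, and in B-like cells by less (0.692, 0.556 to 0.865). Stellate-like cells held 262, 222 and 66.2 CPM, 0.253 times IDD in IDD+HID (0.197 to 0.323), or 0.497 with cells thinned to 1000 UMIs. Sinusoidal endothelial-like cells held 162, 116 and 58.2 CPM, 0.360 times IDD (0.308 to 0.422). Kupffer-like cells held 148, 130 and 68.9 CPM, 0.466 times IDD (0.398 to 0.548), or 0.772 at the finer clustering, where IDD+HID over IDD+HTF was 0.690. Hepatocyte-like cells had the highest level, 297, 475 and 121 CPM. The treated mice lay on either side of IDD there, IDD+HTF at 1.60 (1.38 to 1.87) and IDD+HID at 0.407 times its level (0.322 to 0.513), or 0.262 with a limit of 10% mitochondrial UMIs. T-like and B-like cells also had more in IDD+HTF than in IDD, 111 against 58.4 CPM and 171 against 98 CPM, ratios of 1.90 (1.21 to 3.09) and 1.75 (1.20 to 2.59). Near-empty droplets, which hold free RNA, contained more Bhlhe41 than any class, 617, 777 and 334 CPM. The droplets thus had the same order as hepatocyte-like cells, 1.26-fold (1.18 to 1.34) and 0.542-fold (0.500 to 0.586) over IDD. The median gene of the droplets lay 0.79 and 0.92 log2 above IDD, so the 1.26-fold was less than that of the median droplet gene. With free RNA estimated from Alb, the albumin gene of hepatocytes, 59.6, 52.4 and 20.9 CPM of the sinusoidal endothelial-like value would come from droplets. With free RNA subtracted, a setting that leaves out hepatocyte-like cells and their Bhlhe41 pair, 6 rather than 10 clock pairs were lower in IDD+HID than in IDD+HTF. The other pairs lost were Bhlhe41 in vascular endothelial-like (0.697) and plasmacytoid dendritic-like cells (0.722) and Nr1d2 in T-like cells (0.669). The Bhlhe41 ratio of IDD+HTF over IDD became 1.45 in T-like cells, as it also did with cells thinned to 1000 UMIs, and 2.75 in B-like cells.

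**Figure D3:**
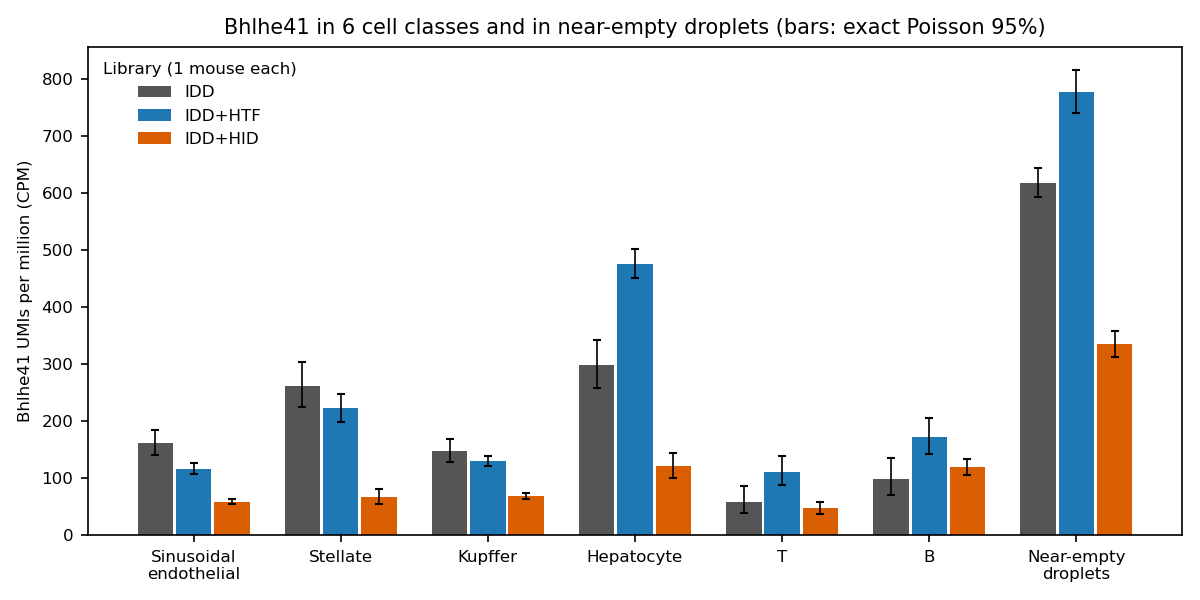
Bhlhe41 level (CPM, bars from 0) in 6 cell classes and in droplets of 100 or fewer UMIs, by library. The droplet bars are the tallest in every library, at 617, 777 and 334 CPM, and IDD+HID has the lowest bar in each class except B-like.

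The REV-ERB genes and Arntl were scarcer in free RNA. In the droplets Arntl was 5.04, 14.7 and 7.10 CPM, Nr1d1 3.98, 6.87 and 10.6 CPM, and Nr1d2 4.77, 15.1 and 7.10 CPM. These are below the levels in sinusoidal endothelial-like cells of the same library. Droplet Per1 was 9.81, 25.2 and 31.5 CPM, 2.57-fold (1.66 to 4.00) and 3.21-fold (2.15 to 4.88) over IDD. Of all 6143 genes measured in droplets 70.9% were at least 1.5-fold higher in IDD+HTF than in IDD, and 74.2% of 6719 in IDD+HID, so a higher droplet level is near the background there.

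To read the 2 opposing arms within 1 sum of counts, the UMIs of Nr1d1, Nr1d2, Dbp and Per3 were divided by those of Arntl and Npas2. This output-to-activator ratio does not depend on scaling between libraries. In sinusoidal endothelial-like cells it was 0.60 for IDD (51 to 85 UMIs), 1.16 for IDD+HTF (329 to 283) and 2.01 for IDD+HID (793 to 394). In stellate-like cells it was 0.294 (20 to 68), 1.04 (93 to 89) and 2.00 (150 to 75). Both classes therefore had the same order of libraries. Divided by the IDD value, the endothelial ratio was 1.94 for IDD+HTF (1.30 to 2.90) and 3.35 for IDD+HID (2.29 to 4.95). The stellate ratio was 3.55 (1.94 to 6.68) and 6.80 (3.73 to 12.7). Of the 4 output genes, only Nr1d1 and Nr1d2 passed the rule of size upward in IDD+HID over IDD in these classes. Endothelial Per3 was nearly level, and Dbp and stellate Per3 had too few UMIs to be measured. The endothelial output sum of IDD+HID held 283 Nr1d1, 344 Nr1d2, 141 Per3 and 25 Dbp UMIs. The ratio is thus not a shift of every output gene. With each gene of an arm weighing the same, as the mean of log2(CPM + 10), the values over IDD were smaller. They were 1.30 and 1.64 in the endothelial class and 2.33 and 3.23 in the stellate class. The added 10 CPM by itself also draws the ratios of scarce genes towards 1. IDD+HID also lay above IDD+HTF in both, by 1.73 (1.41 to 2.12) and 1.91 (1.26 to 2.92).

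The ratio of the other classes was less well determined or ran differently. Kupffer-like cells stood at 1.31, 1.88 and 1.70, and over IDD the change was 1.44 (0.868 to 2.38) and 1.30 (0.791 to 2.12), not separated from 1. Hepatocyte-like cells stood at 0.750, 2.60 and 7.50, on 6 to 8, 65 to 25 and 30 to 4 UMIs. Their IDD+HID value was 10.0 times that of IDD (1.83 to 58.3), and the IDD+HTF value 3.47 times (0.934 to 13.3). T-like cells stood at 0.800, 1.47 and 1.48, with intervals over IDD that included 1. B-like cells stood at 2.25, 0.682 and 1.32, and their IDD+HTF ratio was 0.303 times IDD (0.0905 to 0.980), opposite to the endothelial and stellate classes. Against IDD the ratio was thus above 1 in 5 of 6 classes in each treated mouse. Its interval left out 1 upward in 2 classes and downward in 1 for IDD+HTF, and upward in 3 for IDD+HID. The treated mice compared with each other gave 7 of 8 classes above 1, with 2 intervals leaving out 1. Near-empty droplets, which no clustering touches, stood at 1.24, 1.63 and 2.57, and IDD+HID was 2.06 times IDD (1.01 to 4.25).

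**Figure D4:**
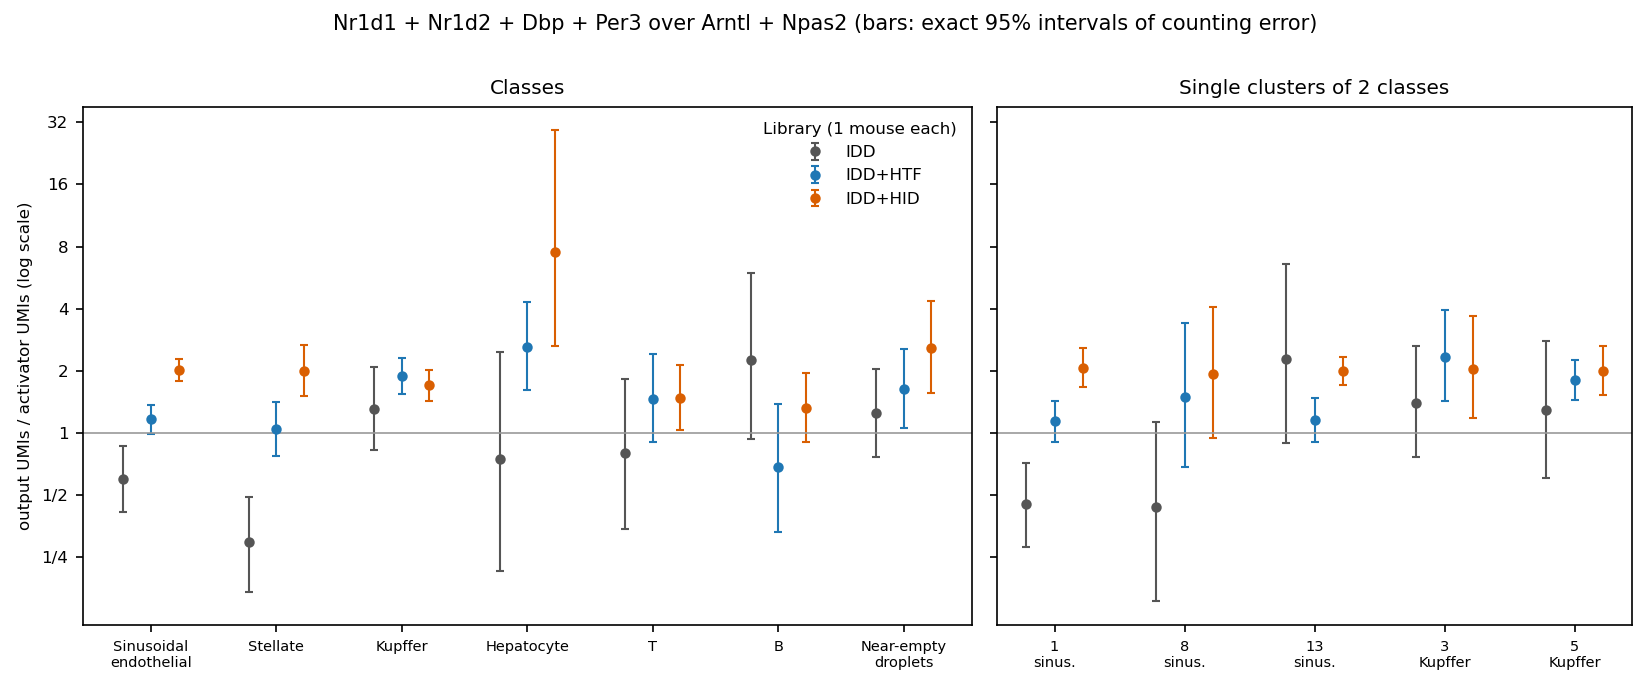
Output-to-activator ratio, UMIs of Nr1d1, Nr1d2, Dbp and Per3 over those of Arntl and Npas2, on a vertical log axis, by library. Bars are 95% intervals for counting error, the left panel shows classes and near-empty droplets, and the right panel shows sinusoidal endothelial-like clusters 1, 8 and 13 and Kupffer-like clusters 3 and 5. Clusters 1 and 8 are lowest in IDD, at 0.452 and 0.438, while cluster 13 is at 2.29 there.

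The libraries filled the clusters of a class unequally, so the ratio was also read within clusters. Sinusoidal endothelial-like cells formed cluster 1 (238, 344 and 395 cells), cluster 8 (108, 127 and 147) and cluster 13, led by the chemokine gene Cxcl10 (31, 326 and 563). The ratio was 0.452, 1.14 and 2.07 in cluster 1 and 0.438, 1.5 and 1.92 in cluster 8. In cluster 13 it was 2.29 in IDD, on 16 to 7 UMIs, then 1.16 and 1.99. Nr1d2 in cluster 1 was 4.38 CPM in IDD (4 UMIs), 29.6 in IDD+HTF and 32.6 in IDD+HID, ratios of 6.75 (2.52 to 25.5) and 7.44 (2.83 to 27.8). In cluster 13 Nr1d2 was 35.5, 20.8 and 32.5 CPM, with no such difference. Arntl in IDD+HID was 0.542 times IDD in cluster 1 (0.398 to 0.746). In cluster 13 that Arntl ratio was 1.01 (0.485 to 2.55), on 7 UMIs in IDD. Without the clusters led by Cxcl10 and Cxcl2 (cluster 21, Kupffer-like, 10, 37 and 254 cells), Nr1d2 in the endothelial class was 6.23-fold and 7.21-fold over IDD. Per1 in Kupffer-like cells also depended on the cluster. It was 6.51, 36.1 and 45.1 CPM in cluster 5 but 15.5, 14.0 and 17.3 CPM in cluster 3 and 115, 71.7 and 74.2 CPM in cluster 21.

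Stellate-like cells came from 1 cluster (cluster 10), but some carried endothelial RNA. Markers of sinusoidal endothelial cells (10 of 10 with UMIs in each library) summed to 2929, 9190 and 10171 CPM there. They made up at least 0.5% of UMIs in 21 of 136, 55 of 146 and 45 of 117 stellate-like cells, at higher depth than the rest. Markers of Kupffer cells summed to 27.9, 2150 and 1427 CPM in the stellate-like class and those of B cells to 39.7, 587 and 805 CPM, and their part in the stellate differences was not tested. Without the cells at or above 0.5% endothelial markers, Arntl was 64.6, 42.3 and 18.0 CPM (33, 23 and 9 UMIs). Nr1d1 was then 5.87, 20.2 and 42.1 CPM (3, 11 and 21 UMIs). Nr1d2 was 13.7, 31.2 and 56.2 CPM. The IDD+HID ratios over IDD were then 0.280 for Arntl (0.118 to 0.597), 7.17 for Nr1d1 (2.14 to 37.6) and 4.10 for Nr1d2 (1.75 to 11.1). The output-to-activator ratio over IDD was 3.18 in IDD+HTF and 9.33 in IDD+HID. Npas2 without them was 43.0, 27.6 and 26.1 CPM. Its ratios over IDD, 0.640 for IDD+HTF (0.309 to 1.29) and 0.606 for IDD+HID (0.280 to 1.26), were no longer separated from 1. Bhlhe41 was 299, 395 and 116 CPM, 0.389 for IDD+HID over IDD (0.282 to 0.529), and in IDD+HTF it was then above IDD. Bhlhe40 gave 1.33 for IDD+HID over IDD (0.715 to 2.52), below the rule of size.

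Of the 16 other clock genes few passed the rule. In sinusoidal endothelial-like cells 10 were measured, with 0 higher and 0 lower in IDD+HTF (10.7% and 9.59% of all genes measured there). In IDD+HID 0 were higher (15.6%) and 2 lower, Btrc and Cry1 (18.3%). Cry1, a repressor of the BMAL1 complex, was 13.4, 9.82 and 8.30 CPM, 0.619 in IDD+HID over IDD (0.370 to 1.09). Its relative Cry2 was 5.21, 1.89 and 2.52 CPM on 7, 10 and 27 UMIs, too few to compare. Clock, which encodes the partner of BMAL1, was nearly level at 122, 104 and 107 CPM. In stellate-like cells IDD+HTF had 0 higher and 1 lower of 7 (24.4% and 10.9% of all), and IDD+HID had 1 higher and 3 lower of 8 (31.2% and 16.1%). In Kupffer-like cells IDD+HTF had 0 of 8 in either direction (13.2% and 5.8%) and IDD+HID 2 higher and 1 lower of 10 (16.6% and 8.43%). The gene lower there was Tef, the relative of Dbp, at 22.7, 17.2 and 12 CPM (0.527, 0.353 to 0.807). Nfil3, the D-box repressor, was 0.458 in IDD+HID over IDD+HTF in Kupffer-like cells, and Ciart, a repressor of BMAL1, was 1.96-fold higher (1.12 to 3.57). Of 15 clock-driven output genes, sinusoidal endothelial-like cells measured 9, with 0 past the rule in IDD+HTF. In IDD+HID 3 were past it upward (Hspa8, Tspan4 and Alas1) and 1 downward (Elovl3), and the intervals of Alas1 (0.978 to 2.51) and Elovl3 (0.362 to 1.19) included 1. Stellate-like cells measured 7 of that list. In IDD+HTF 1 was higher and 3 lower (24.4% and 10.9%), and in IDD+HID 2 were higher and 1 lower (31.2% and 16.1%). Stellate Coq10b was 0.535 (0.390 to 0.735) and 0.554 times IDD (0.409 to 0.752). Hepatocyte-like cells had 2 higher and 1 lower of 5 in IDD+HTF (18.5% and 14.2%) and 2 of 3 higher in IDD+HID (65.0%). Alas1 there was 6.03, 69.6 and 149 CPM (4, 194 and 149 UMIs).

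Other signals that reach clock genes differed between the same libraries, and their part in the clock differences was not tested. Immediate early genes, which Per1 can join, were higher than in IDD in 8 of 12 members in IDD+HTF and 11 of 12 in IDD+HID in sinusoidal endothelial-like cells (10.7% and 15.6% of all genes measured there). In stellate-like cells it was 11 and 12 of 12, and in Kupffer-like cells 4 and 12, against the shares of all genes given above. Fos was 807, 1724 and 2860 CPM in sinusoidal endothelial-like cells. Among B-like cells 1 of 12 immediate early genes was higher and 4 lower in IDD+HTF (10.8% and 8.26% of all genes). For IDD+HID 0 of 12 were higher and 7 lower (18.8% and 8.58%). B-like Fos was 627, 415 and 250 CPM, while Per1 there was higher in IDD+HID than in IDD. Of the glucocorticoid-induced genes, Klf9, itself under clock control, was 158, 265 and 246 CPM in sinusoidal endothelial-like cells and 32.7, 64.7 and 88.2 CPM in Kupffer-like cells. Of that list 2 of 9 measured genes were higher in IDD+HTF and 3 of 8 in IDD+HID in sinusoidal endothelial-like cells, and 5 of 7 in each, with 1 of 7 lower, in stellate-like cells. The shares of all genes higher there were 10.7% and 15.6%, and 24.4% and 31.2%. In Kupffer-like cells 3 of 6 glucocorticoid genes were higher in IDD+HTF (13.2% of all genes), and 3 of 7 higher and 2 lower in IDD+HID (16.6% and 8.43%). In B-like cells 0 of 5 were higher and 3 lower in IDD+HID (18.8% of all genes higher and 8.58% lower). Hypoxia genes, to which Bhlhe40 and Bhlhe41 respond, were higher in 1 of 5 and 1 of 6 in sinusoidal endothelial-like cells, near the 10.7% and 15.6% of all genes. In Kupffer-like cells 2 of 6 were higher and 2 lower in each comparison with IDD. Of all genes there, 13.2% were higher and 5.8% lower in IDD+HTF, and 16.6% and 8.43% in IDD+HID.

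Genes that mark a fed liver were lower in both treated mice. Of the feeding list, 9 of 9 measured genes were lower in IDD+HTF and 8 of 9 in IDD+HID in hepatocyte-like cells, against 14.2% and 12% of all genes measured there. Their median log2 ratios were −2.04 and −2.73, against −0.03 and 0.99 for all genes measured. Fasn, fatty acid synthase, was 441, 46.6 and 12 CPM, and Thrsp, another gene of fat synthesis, 1119, 313 and 45.0 CPM. Fasting genes were higher in 2 and lower in 1 of 6 in IDD+HTF, and higher in 5 and lower in 2 of 7 in IDD+HID. Of all hepatocyte genes 18.5% and 65.0% were higher, so the IDD+HID count is near the background. The hepatocyte-like values of IDD+HID depend on scaling. The median gene lay 0.97 log2 above IDD and 1.01 above IDD+HTF by total counts, against 0.05 and 0.07 by TMM. In the other classes no median exceeded 0.19 by total counts. For IDD+HID over IDD the stellate median was 0.23 by TMM and 0.24 by median of ratios, and the sinusoidal endothelial one 0.14 and 0.20. Bhlhe41 in hepatocyte-like cells, lower in IDD+HID by totals, was 0.215 times IDD and 0.133 times IDD+HTF by TMM.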

How the data were processed

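The deposited values are raw counts of UMIs per barcode and gene from 3 liver libraries of 34552858, 55478904 and 75404660 UMIs, with every barcode kept and no normalization. The genome build GRCm38 and Seurat 4 are named per the submitters' processing notes. Of the aligner, the counter and its use of strand nothing is said, that is, they were not given in the sources used here. Symbols (55154 of 55421 identifiers matched) and positions came from GENCODE. The members, gene lists and settings were chosen with earlier results of these data known.

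A barcode was kept as a cell from 1000 UMIs and 300 genes upward and up to a mitochondrial share of 20%. Scrublet called 1.72%, 0.156% and 0.197% of barcodes doublets, which were removed. The shares under 0.5% are too low to rely on, so doublets may remain in IDD+HTF and IDD+HID. Leiden clustering (scanpy 1.11.5, igraph 0.11.9; 2000 variable genes, 30 principal components, 15 neighbours, resolution 1) gave 25 clusters, of which 4 stayed unnamed. Clusters were named from 20 marker lists, with thresholds set after their profiles were seen, and a difference between classes may come from these rebuilt names.

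Counts were summed per class and library. Ratios of CPM carry exact conditional binomial intervals, levels exact Poisson intervals and the output-to-activator comparison Fisher's conditional interval (scipy 1.17.1). Thinned shares are expectations over all draws with approximate intervals. Where a library had 0 UMIs, 3 counts set the limit. The intervals treat UMIs as independent molecules. On simulated data for IDD+HTF over IDD in sinusoidal endothelial-like cells (10409 genes), 93 of 95 measured genes changed 2-fold and 88 of 88 changed 4-fold passed the 1.5-fold rule, as did 5.55% of unchanged genes. The text names all 10 members whatever their values, Clock, Cry1, Cry2, Tef, Nfil3 and Ciart likewise, and from the other lists at most 4 genes per direction, class and comparison, largest first, that were measured and past 1.5-fold with an interval leaving out 1. Not all genes that rule allows are named, and which ones are was chosen with their values known. Alas1 and Elovl3 in sinusoidal endothelial-like cells have intervals that include 1, and Thra, Sphk2 and Gm43909 share exon bases with members. These fall outside the rule and were chosen after their values were seen. Alternatives were other cell limits, thinning, free-RNA subtraction, other resolutions, and TMM (edgeR 4.0.16) and median-of-ratios (DESeq2 1.42.0) scaling of the counts as factors only.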

Additional observations from a re-analysis of the deposited data

Results flagged for a closer look

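In 3 comparisons a clock reading passed the rule of size, with an interval leaving out 1, in opposite directions in different cell classes. The difference between the classes was not tested, and with 1 mouse per group it cannot be tested across mice. Bhlhe40, the gene of the E-box repressor DEC1, was 1.77-fold higher in IDD+HID than in IDD in stellate-like cells (1.13 to 2.85) and 0.597-fold in Kupffer-like cells (0.500 to 0.718). Without the stellate-like cells that carried sinusoidal endothelial markers, the stellate value was 1.33 (0.715 to 2.52). Per1 in IDD+HID over IDD+HTF was 0.592 in vascular endothelial-like cells (0.366 to 0.969), 1.59 in Kupffer-like cells (1.36 to 1.87) and 2.00 in T-like cells (1.21 to 3.46). From IDD+HTF to IDD+HID, Per1 went from 29.3 to 41.1 CPM in T-like cluster 11 and from 25.3 to 64.1 CPM in T-like cluster 16. The output-to-activator ratio in IDD+HTF was 1.94 times that of IDD in sinusoidal endothelial-like cells (1.30 to 2.90), 3.55 times in stellate-like cells (1.94 to 6.68) and 0.303 times in B-like cells (0.0905 to 0.980). The B-like value rested on 18 output and 8 activator UMIs in IDD and on 15 and 22 in IDD+HTF.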

How the results depend on the processing

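No called ratio of a clock gene turned direction under an alternative in which it was recomputed. Of the recomputed ratios 984 of 1020 stayed within their counting interval, as did 228 of 236 output-to-activator comparisons. Ratios that fell under the filter on low counts are not in this tally, and single clusters were not among the alternatives. Within clusters some called ratios crossed 1. For IDD+HTF over IDD, endothelial Nr1d2 was 2.68 in the class but 0.585 (0.266 to 1.52) in cluster 13. In Kupffer-like cluster 3 Nr1d1 was 2.83 CPM in IDD and 2.47 in IDD+HID. The counts of pairs past the rule moved with the rule of size and with the filter on low counts. At 2-fold, IDD+HTF over IDD had 3 higher and 1 lower, IDD+HID over IDD 4 lower, and IDD+HID over IDD+HTF 0 higher and 3 lower. With no filter on low counts the same counts were 15 and 10, 19, and 10 and 22. The lower count of IDD+HTF over IDD was 2 with at least 2000 UMIs per cell and 2 with at most 10% mitochondrial UMIs, and that of IDD+HID over IDD+HTF was 6 with free RNA subtracted. Without cells that held sinusoidal endothelial markers, an alternative added after seeing the data, the higher counts were 6 for IDD+HID over IDD and 2 for IDD+HID over IDD+HTF, with fewer UMIs to pass the filter, and the stellate output-to-activator value between the treated mice was 2.93. With each gene of an arm weighing the same and 10 CPM added to each level, that comparison gave 1.30, 1.64 and 1.27 in sinusoidal endothelial-like cells. It gave 3.23 for IDD+HID over IDD in stellate-like cells. For IDD+HID over IDD+HTF, adding Clock gave 1.31 in sinusoidal endothelial-like cells and 0.774, a change of side, in hepatocyte-like cells, and adding Per1 and Per2 gave 1.19, also a change of side, in Kupffer-like cells. The cause of these shifts was not tested. Leaving out the clusters led by Cxcl10 and Cxcl2 was likewise chosen after seeing the data. Free-RNA subtraction leaves out hepatocyte-like cells. No paired analysis was possible because each group is 1 mouse and all 3 carry the same replicate number, and for the same reason no replicate could be left out. In hepatocyte-like cells a member had at most 41 UMIs in a library, Bhlhe40 and Bhlhe41 aside, which limits what could be compared there.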

Other observations

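The genes outside the lists that varied most like 3 of the clock genes are given as a description. Likeness is Pearson's r of log2(CPM + 10), each class centred on its own mean, over 18 points (6 classes in 3 libraries) among 1814 genes with at least 10 UMIs in every class and library. The points share mice, free RNA and depth, so no p is given. The 3 clock genes themselves did not meet the limit of 10 UMIs. In hepatocyte-like cells Nr1d2 had 1 UMI and Dbp 0 in IDD, and Arntl had 4 in IDD+HID. For Nr1d2 the genes were Pebp1 (0.80), Ddx3x (0.79), Rab10 (0.79), Cnppd1 (0.78) and Pttg1ip (0.77). For Dbp, which is scarce, they were Dtx3l (0.77), Slc9a3r1 (0.70), Dynlrb1 (0.67), Clec2d (0.66) and Btg1 (0.64). For Arntl they were Ddx23 (0.85) and the gene models Gm44645 (0.84), Gm48841 (0.82), Gm37144 (0.82) and Gm4034 (0.81).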
